A study of Mus musculus with 6 samples.

Results

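The genes described here are 8 co-stimulatory and checkpoint ligands of medullary thymic epithelial cells (mTEC), with the receptor gene Cd40 counted among them: Cd80, Cd86, Icosl, Cd40, Cd70, Tnfsf9, Cd274 and Pdcd1lg2. They were chosen by symbol for what their products do at the contact between an antigen-presenting cell and a T cell, and all 8 were found among the 55385 genes of the count files. Each was measured in 3 libraries of P53-cKO mice, a conditional knockout of Trp53, the gene of the transcription factor p53, and in 3 libraries of P53-WT mice, titled NoCre and labelled wild type for Trp53. All 6 libraries came from thymi of mice aged 4 to 5 weeks, from which epithelial cells were enriched by the surface protein EpCAM and 75000 sorted mTEC of the type mTEChi were lysed for poly(A) RNA. The labels name neither the Cre driver nor the floxed allele. Separate animals for the 3 libraries of a genotype are not stated either, and the p-values then measure only the scatter of these samples, part of which may be technical.

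Medullary epithelial cells display self antigens to developing T cells, and the outcome for a self-reactive cell depends on the signals that come with the antigen. B7 proteins on the epithelial cell bind CD28 or ICOS on the T cell and add to the signal of the T cell receptor, or bind CTLA-4 or PD-1 and restrain it. CD40 works in the other direction: it is a receptor on the epithelial cell that receives CD40 ligand from T cells and, with RANK, drives NF-kB and the maturation of these cells. The suffix hi stands in common usage for high surface class II MHC or CD80. The labels do not name the antibodies of the sort, so a gate on CD80 protein may have set part of the Cd80 level in both groups.

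The libraries held 45457892 to 50128045 counts. Trp53 was at 4.10 to 4.65 TPM (length-corrected transcript abundance scaled to a fixed library sum, deposited by the authors) in cKO and 55.6 to 66.7 TPM in WT, so every library matched its label. The 14 markers of mature medullary cells had a median of 509 TPM. Cd74, the class II invariant chain, led them with 22578 TPM in cKO and 22748 TPM in WT. H2-Ab1, a class II chain, followed with 5424 TPM in cKO and 5471 TPM in WT. None of the 14 passed an edgeR adjusted p of 0.05, with or without the library number as a block. Their log2 fold changes, cKO over WT, lay between −0.32 and 0.36. The groups of 4 of the 14 did not overlap (28.6%, against 14.4% of all genes tested). Ptprc, the gene of the leukocyte surface protein CD45, was at 1.59 to 3.15 TPM in cKO and 1.53 to 2.98 TPM in WT. The summed level of 13 thymocyte markers, led by Thy1 and Cd4, was 93.6 to 132 TPM in cKO and 97.2 to 157 TPM in WT, and that of 8 B cell markers, led by Cd79b and Cr2, 69.3 to 78.5 TPM in cKO and 65.4 to 77.3 TPM in WT. Singly, 2 of the 13 thymocyte markers had a log2 fold change above 0 and 11 below, and the groups overlapped for each. Of the B cell markers, 5 lay above 0 and 3 below. The groups of 3 of these 8 did not overlap (37.5%, against 14.4% of all genes tested). The 8 cortical epithelial markers, led by Ccl25 and Foxn1, summed to 333 to 366 TPM in cKO and 379 to 403 TPM in WT without overlap. The sum does not describe each marker: their median log2 fold change was −0.04, with 3 of 8 above 0 and 5 below. Taken singly, 1 of the 8 had groups that did not overlap (12.5%, against 14.4% of all genes tested). Foxn1, the epithelial master regulator, averaged 97.5 TPM in cKO and 139.8 TPM in WT (edgeR adjusted p = 0.0506, and 0.00242 with the library number as a block), and Cr2 averaged 16.2 TPM in cKO and 11.4 TPM in WT (adjusted p = 0.320, and 0.0158 with the block). The 8 fibroblast and endothelial markers, led by Pdgfrb and Col1a1, summed to 62.3 to 73.2 TPM in cKO and 63.2 to 68.4 TPM in WT. No marker of these lists was at 0 in any library.

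All 8 ligand genes were transcribed in every library, at levels from 24.0 to 253 TPM. TPM corrects for gene length and so allows genes to be compared. Icosl was the most abundant of the 8, with a mean of 234 TPM over the 6 libraries, at place 570 among the 51810 genes of the series table. Cd40, Cd80 and Cd274 followed at 146, 144 and 139 TPM, and their ranges over the libraries overlapped. Cd70 at 66.5, Tnfsf9 at 58.5 and Pdcd1lg2 at 51.9 TPM formed a lower set, again with overlapping ranges. Cd86 was the least abundant at 32.7 TPM, at place 4633, and was below Pdcd1lg2 in 6 of 6 libraries. The gaps between Icosl and Cd40, between Cd274 and Cd70, and between Pdcd1lg2 and Cd86 were the 3 places in this order at which the ranges of neighbours did not overlap. The places of Cd274 and Tnfsf9 in it are uncertain, because strand was ignored in counting. An overlapping gene on the opposite strand had at most 31.7% of the Cd274 count and 31.2% of the Tnfsf9 count of a library.

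**Figure D1:**
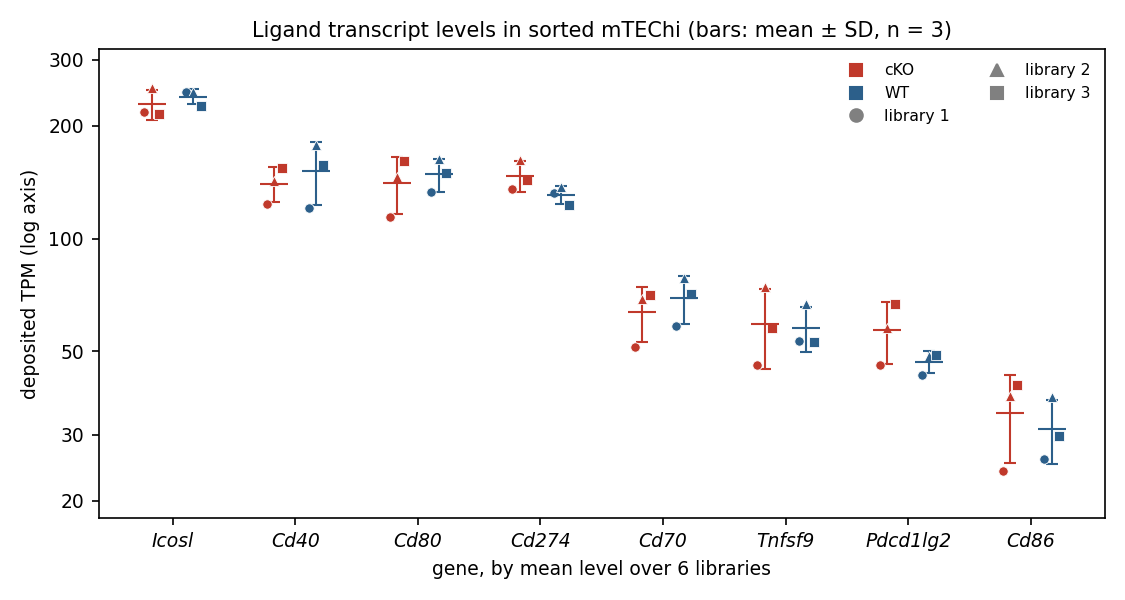
Deposited TPM on a log axis of each ligand gene in the 3 cKO libraries (left of each pair, red) and the 3 WT libraries (right, blue), with bars for the mean ± SD (n = 3 each) and a marker shape for the library number. Icosl lies highest at 214 to 253 TPM and Cd86 lowest at 24.0 to 40.7 TPM, and the libraries of both genotypes overlap for every gene.

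None of the 8 differed between genotypes past the threshold of an adjusted p of 0.05 in edgeR's quasi-likelihood test, where 0.0596% of the 28543 genes tested were called in either direction, 0.0245% as higher and 0.035% as lower in cKO. With the library number as a block, 0 of 8 were called, against 0.711% of all genes in either direction and 0.483% as higher. At an unadjusted p under 0.05 there were 0 of 8 without the block, against 8.51% of all genes, and 1 of 8 with it, Pdcd1lg2 (adjusted p = 0.297, edgeR), against 11.8% of all genes. The libraries of both groups overlapped for all 8, where 14.4% of all genes had groups that did not overlap. The log2 fold changes, cKO over WT, lay between −0.15 and 0.26 with a median of −0.04, against −0.01 over all genes tested, and 4 were positive. In bulk samples, fewer cells of a type and less RNA per cell cannot be told apart.

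Cd80 and Cd86 encode B7-1 and B7-2, which share the receptors CD28 and CTLA-4. Cd80 (ENSMUSG00000075122, chromosome 16, 38455561 to 38496335 in mm10) had 114, 146 and 161 TPM in cKO libraries 1 to 3, against 133, 163 and 149 TPM in WT libraries 1 to 3. The lowest value was that of cKO library 1, and the other cKO values lay within the WT range. Its mean was 140.5 ± 24.1 TPM in cKO and 148 ± 15.0 TPM in WT (SD, n = 3 each), which gives −0.10 on the log2 scale (SE 0.133; adjusted p = 0.883, edgeR). The 95% interval of the fold ran from 0.759 to 1.14, so changes within these bounds could not be told from 0 with this number of libraries.

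Cd86 (ENSMUSG00000022901, chromosome 16, 36603869 to 36666081) lies on the same chromosome as Cd80. It had 24.0, 38.1 and 40.7 TPM in cKO, against 25.8, 37.7 and 29.8 TPM in WT. Library 1 was the lowest of both genotypes, and Cd86 had the highest biological coefficient of variation of the 8. The means were 34.3 ± 9.01 TPM in cKO and 31.1 ± 6.06 TPM in WT, which gives 0.11 on the log2 scale (SE 0.235; adjusted p = 0.943, edgeR), and the 95% interval of the fold ran from 0.737 to 1.59. The ratio of Cd80 to Cd86 TPM was 4.75, 3.84 and 3.96 in cKO libraries and 5.16, 4.32 and 5.02 in WT libraries. Within each library number the ratio was lower in cKO, and the ranges of the groups overlapped.

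Icosl encodes the ligand of ICOS, a CD28 relative on activated and regulatory T cells. Icosl (ENSMUSG00000000732, chromosome 10, 78069302 to 78083913) had 218, 253 and 214 TPM in cKO, against 246, 246 and 226 TPM in WT. The cKO libraries held both the highest and the lowest value. By library number, the differences of log2 CPM were −0.16, −0.04 and −0.08, below 0 in 3 of 3 pairs. In TPM pair 2 went the other way, at 253 TPM in cKO and 246 TPM in WT. How many of all genes have 1 sign in 3 of 3 pairs was not counted, for this or the other ligands. With 228 ± 21.2 TPM in cKO and 239 ± 11.4 TPM in WT, the log2 fold change was −0.09 (SE 0.0808, edgeR adjusted p = 0.814). At 20650 to 24395 counts per library it was the most deeply counted of the 8, and its fold had the narrowest 95% interval of the 8, from 0.831 to 1.06.

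Cd40 encodes the receptor of CD40 ligand, and its signal induces class II MHC and B7 proteins on antigen-presenting cells. Cd40 (ENSMUSG00000017652, chromosome 2, 165055627 to 165072948) had 124, 142 and 154 TPM in cKO, against 121, 177 and 158 TPM in WT. WT libraries held its lowest and its highest value. The means were 140.0 ± 15.1 TPM in cKO and 152 ± 28.7 TPM in WT, which gives −0.15 on the log2 scale (SE 0.152; adjusted p = 0.855, edgeR).

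Cd70 and Tnfsf9 encode ligands of the TNF superfamily, CD70 for the receptor CD27 and 4-1BB ligand for the receptor 4-1BB, and they lie close together on chromosome 17. Cd70 (ENSMUSG00000019489, 57145997 to 57149777) had 51.3, 68.9 and 70.8 TPM in cKO, against 58.4, 78.4 and 71.3 TPM in WT. The cKO value was below the WT value of the same number in 3 of 3 pairs, while the group ranges overlapped. The means were 63.7 ± 10.8 TPM in cKO and 69.4 ± 10.1 TPM in WT (log2 fold change −0.15, SE 0.154, edgeR adjusted p = 0.849). That log2 fold change was −0.011 without cKO library 1 and −0.28 without WT library 1. Tnfsf9 (ENSMUSG00000035678, 57105325 to 57107757) had 45.9, 74.2 and 57.7 TPM in cKO, against 53.4, 66.9 and 53.01 TPM in WT. Its cKO libraries spanned the whole WT range, with means of 59.3 ± 14.2 TPM in cKO and 57.8 ± 7.94 TPM in WT (log2 fold change 0.01, SE 0.165, edgeR adjusted p = 0.994). Its exons share 14.9% of their bases with Gm11110 on the opposite strand, and strand was ignored in counting although the library kit keeps it, so the Tnfsf9 level is uncertain. Gm11110 itself had 320 to 472 counts, at most 31.2% of the Tnfsf9 count of a library.

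Cd274 and Pdcd1lg2 encode PD-L1 and PD-L2, the ligands of the inhibitory receptor PD-1, and are neighbours on chromosome 19. Pdcd1lg2 (ENSMUSG00000016498, 29410919 to 29471161) had 46.0, 57.9 and 67.1 TPM in cKO, against 43.2, 48.5 and 48.9 TPM in WT. The 2 highest values were those of cKO libraries 2 and 3, while cKO library 1 lay within the WT range. With means of 57.0 ± 10.6 TPM in cKO and 46.9 ± 3.16 TPM in WT, its log2 fold change of 0.26 was the largest of the 8 (SE 0.135, edgeR adjusted p = 0.645), and the 95% interval of the fold ran from 0.977 to 1.47. Paired by library number, the difference of log2 CPM (TMM-scaled counts) was 0.10, 0.17 and 0.46, positive in 3 of 3 pairs. The log2 fold change was 0.11 without cKO library 3 and 0.40 without cKO library 1.

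Cd274 (ENSMUSG00000016496, 29367455 to 29388095) had 135, 162 and 144 TPM in cKO, against 132, 137 and 123 TPM in WT. The lowest cKO value lay below the highest WT value, and the means were 147 ± 13.8 TPM in cKO and 131 ± 7.29 TPM in WT (log2 fold change 0.15, SE 0.0866; adjusted p = 0.700, edgeR). By library number, the differences of log2 CPM were 0.05, 0.16 and 0.22. Of its exon bases 14.1% are shared with Gm36043 on the opposite strand, which had 2618 to 3344 counts, at most 31.7% of the Cd274 count of a library. With every Gm36043 count taken off Cd274, as if all came from the shared bases, the log2 ratio of the group means in CPM was 0.16, against 0.15 with all reads. The ratio of Cd274 to Pdcd1lg2 TPM was 2.94, 2.81 and 2.14 in cKO libraries and 3.05, 2.83 and 2.52 in WT libraries, so PD-L1 transcripts outnumbered PD-L2 transcripts per length in 6 of 6 libraries.

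**Figure D2:**
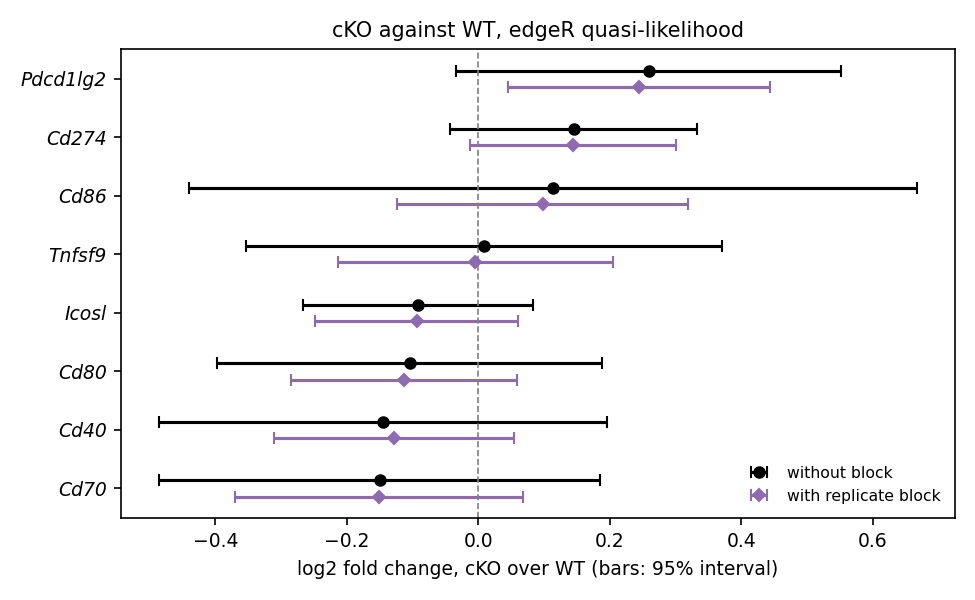
Log2 fold change, cKO over WT, of each ligand gene with its 95% interval, without (black circles) and with (purple diamonds) the library number as a block. Without the block every interval includes 0; with it, the interval of Pdcd1lg2 runs from 0.05 to 0.44 (edgeR adjusted p = 0.297).

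RefSeq promoter windows of build GRCm38.p6 could be matched to 4 of the 8 genes, Cd80, Icosl, Cd274 and Pdcd1lg2. They are shown because NF-kB is the pathway that CD40 and RANK drive in these cells and p53 is the factor that was deleted. Each starts 250 bases before the RefSeq transcript start on the plus strand and stops before it, or before the first exon base of the count files. Capitals mark matches to an NF-kB motif, GGGA and CC with any 4 bases between them, on either strand.
Cd80, chr16:38458683-38458932: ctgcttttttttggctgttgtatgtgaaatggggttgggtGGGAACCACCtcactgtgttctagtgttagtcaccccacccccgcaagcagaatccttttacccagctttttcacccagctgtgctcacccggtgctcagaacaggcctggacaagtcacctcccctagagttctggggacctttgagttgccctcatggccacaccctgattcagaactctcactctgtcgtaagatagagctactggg
Icosl, chr10:78069118-78069301: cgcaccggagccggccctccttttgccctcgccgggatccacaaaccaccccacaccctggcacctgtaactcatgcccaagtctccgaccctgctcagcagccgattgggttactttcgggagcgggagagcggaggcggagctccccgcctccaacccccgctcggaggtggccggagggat
Cd274, chr19:29367188-29367437: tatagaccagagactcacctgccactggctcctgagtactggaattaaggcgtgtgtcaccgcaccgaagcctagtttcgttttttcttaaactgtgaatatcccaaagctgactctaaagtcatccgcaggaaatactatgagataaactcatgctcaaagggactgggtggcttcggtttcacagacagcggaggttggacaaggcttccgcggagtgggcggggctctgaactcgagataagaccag
Pdcd1lg2, chr19:29410669-29410918: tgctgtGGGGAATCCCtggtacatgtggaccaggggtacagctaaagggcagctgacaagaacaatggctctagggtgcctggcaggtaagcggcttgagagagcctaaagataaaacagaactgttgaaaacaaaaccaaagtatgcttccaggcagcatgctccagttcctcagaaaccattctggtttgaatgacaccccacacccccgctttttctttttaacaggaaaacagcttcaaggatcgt

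The NF-kB letters occurred once in the window of Cd80, on the plus strand, and once in that of Pdcd1lg2, on the minus strand, and 17.6% of 32851 RefSeq windows of 250 bases held a match. The RefSeq start of Cd80 lies inside the gene of the count files, whose first exon is further upstream. The p53 half-site matched in 0 of the 4 windows and in 7.13% of all windows. The window of Icosl held 184 bases, fewer than the 250 behind these shares. A match describes letters, not a site of binding.

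The level of most of the 8 also differed by library number. On the scale of CPM, library 1 held the lowest cKO value for 8 of 8 ligands and the lowest WT value for 6 of 8. Both were lowest together for 6 of the 8, Cd80, Cd86, Cd40, Pdcd1lg2, Cd70 and Tnfsf9, whereas 14.8% of the 12859 tested genes with 10 CPM or more showed this pattern. On the TPM scale the counts were 7, 5 and 5 of 8. This pattern was chosen after the values were seen and is a description. Cd86 showed it with 38.1 CPM in cKO library 1 while cKO libraries 2 and 3 had 59.9 and 66.4 CPM, and with 40.6 CPM in WT library 1, while WT libraries 2 and 3 had 62.8 and 48.6 CPM. The biological coefficient of variation that edgeR estimates had a median of 0.131 over the 8, against 0.107 over the same 12859 genes, with Cd86 at 0.202 and Icosl at 0.0882.

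Dendritic and myeloid markers moved with the same libraries. Of 16 such markers, 11 had their lowest CPM in library 1 of both genotypes, or 68.8%, against 15.7% of all genes tested. On the TPM scale 10 of the 16 did. Other lists were above the share of all genes too, with 7 of the 18 genes of the receptor list (38.9%) and 3 of the 8 B cell markers (37.5%). The mature medullary markers were above it as well, with 4 of 14 (28.6%). So were other TNF superfamily ligands with 5 of 16 and other B7 and butyrophilin ligands with 2 of 7. Cortical markers had 2 of 8, the CD40 and RANK list 4 of 20 and other inhibitory or adhesion ligands 3 of 15. Below the share were thymocyte markers with 1 of 13, fibroblast and endothelial markers with 1 of 8 and PD-L1 regulators with 1 of 15. The summed level of the dendritic and myeloid markers was 1530, 1838 and 2039 TPM in cKO libraries 1 to 3 and 1314, 1687 and 1573 TPM in WT libraries 1 to 3. Most of that sum came from Lyz2 at 1160 ± 230 TPM in cKO and 905 ± 122 TPM in WT and from Fscn1 at 421 ± 35.2 TPM in cKO and 415 ± 40.0 TPM in WT, while the median marker of the list was at 11.8 TPM and the means of Siglech and Clec9a were below 1 TPM. None of the 16 was at 0 in any library. Ptprc was lowest in library 3 of both genotypes, and the thymocyte sum was lowest in cKO library 1 and WT library 3. Whether dendritic or myeloid cells were among the sorted cells, and what part they had in the ligand levels, was not tested.

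**Figure D3:**
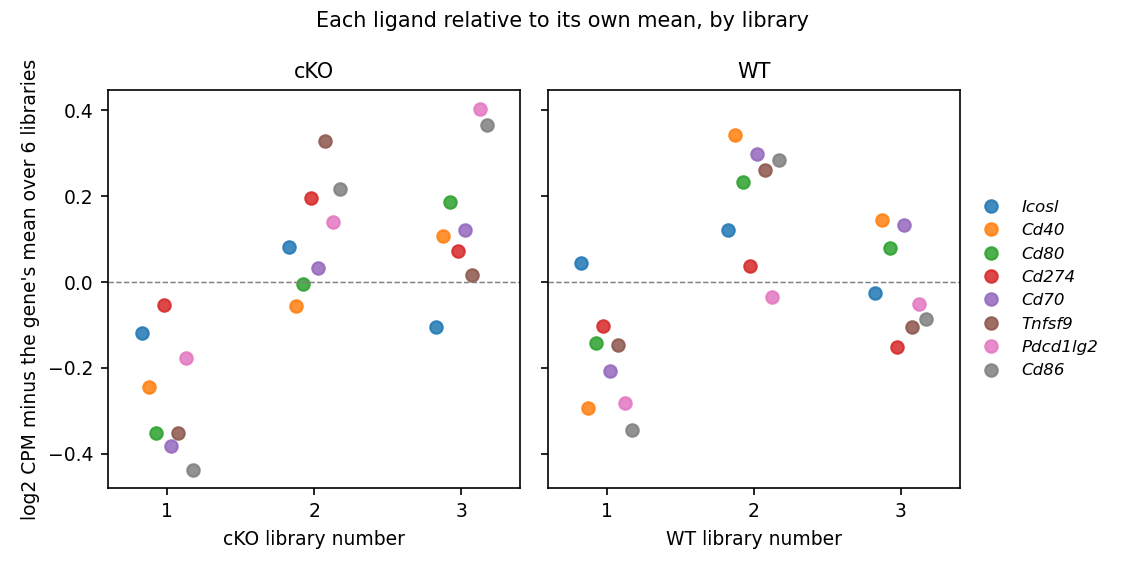
Log2 CPM of each ligand gene minus its own mean over the 6 libraries, for cKO libraries 1 to 3 (left) and WT libraries 1 to 3 (right), with 1 point per gene. All 8 points of cKO library 1 lie below 0 and 7 of the 8 points of WT library 1 do, the exception being Icosl.

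The genes whose log2 CPM most resembled that of Cd80 over the 6 libraries, among 12858 genes with 10 CPM or more, were Timp4, Abi3bp and Epb42, with Pearson r of 0.995, 0.982 and 0.982. For Cd274 they were Rasgrp1, Slamf7 and Slc43a3, with r of 0.996, 0.993 and 0.990. For Cd86, chosen after the values were seen, they were Apol10b, Acod1 and Bcl2a1d, with r of 0.998, 0.993 and 0.989. They were picked as the highest of many values over 6 libraries and are a description.

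Receptors of these and related ligands, known mainly from T cells, were measured in the same RNA. Their list of 18 genes includes Cd40lg, the ligand gene of CD40, which also stands among the TNF superfamily ligands and is counted once in the total over lists. Of the 18 genes 0 passed without the block and 1, Ctla4, was higher in cKO with it. In CPM, the groups of 2 of the 18 did not overlap (11.1%, against 14.4% of all genes tested). Ctla4, the gene of the inhibitory receptor of CD80 and CD86, had 13.96, 16.6 and 15.8 TPM in cKO, against 11.5, 8.46 and 8.56 TPM in WT. Every cKO value lay above every WT value. Its mean was 15.5 ± 1.37 TPM in cKO and 9.52 ± 1.74 TPM in WT, which gives 0.68 on the log2 scale without the block (SE 0.144; adjusted p = 0.168, edgeR) and 0.69 with it (SE 0.140; adjusted p = 0.0271, edgeR). It was the 1 gene called among 90 tested genes of the 6 related lists, where 0.711% of all genes were called with the block. Cd28 and Icos, named because B7 proteins add to the T cell signal through their products, averaged 2.22 and 3.05 TPM over the 6 libraries. The T cell genes Cd3e and Cd4 averaged 2.12 and 13.4 TPM. They belong to the 13 thymocyte markers, whose median was 5.38 TPM and whose highest was Thy1 at 42.3 TPM. Of the 13, 11 had a log2 fold change below 0 and 2 above. Whether T cells or epithelial cells carried the Ctla4 transcripts was not tested. Tnfrsf8 and Tnfrsf9, the receptors CD30 and 4-1BB, were the most abundant of the list at 96.7 and 74.6 TPM in cKO, against 98.9 and 76.3 TPM in WT. Lag3, an inhibitory receptor for class II MHC, had 18.2 ± 0.536 TPM in cKO and 14.9 ± 1.32 TPM in WT (log2 fold change 0.26, edgeR adjusted p = 0.612).

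Among related ligands none passed with or without the block. The 15 genes of other inhibitory or adhesion ligands had a median of 0.13 in log2 fold change, and 10 lay above 0. In CPM, the groups of 5 of the 15 did not overlap (33.3%, against 14.4% of all genes tested). At an unadjusted p under 0.05, 4 of the 15 were higher in cKO, where 4.28% of all genes were. Of these, Nectin2, a ligand of TIGIT and CD226, had 38.4 ± 2.05 TPM in cKO and 30.7 ± 2.04 TPM in WT, without overlap (log2 fold change 0.30, SE 0.0933, edgeR adjusted p = 0.401). Nectin3, an adhesion relative, had 13.6 ± 0.865 TPM in cKO and 11.2 ± 0.861 TPM in WT (adjusted p = 0.464 by edgeR). The other 2 were Ceacam1 and Cd47, named after their values were seen. Icam1, the ligand of LFA-1, and H2-T23, a class Ib MHC gene, were the most abundant of the list at 516 and 344 TPM in cKO, against 501 and 340 TPM in WT. The 7 tested genes of other B7 and butyrophilin ligands had a median log2 fold change of 0.09. Btnl2, a butyrophilin-like inhibitor of T cells, was the most abundant at 42.3 TPM over the 6 libraries (log2 fold change 0.20, edgeR adjusted p = 0.670), Cd276 (B7-H3) followed at 12.5 TPM in cKO and 11.5 TPM in WT, and Vsir, the gene of the checkpoint protein VISTA, had a log2 fold change of 0.27 (edgeR adjusted p = 0.593). Vsig4 was too low to be tested. The 16 other TNF superfamily ligands had a median log2 fold change of −0.06 and were led in level by Tnf at 46.3 ± 9.71 TPM in cKO and 37.1 ± 11.2 TPM in WT and Ltb at 40.4 TPM in cKO and 44.4 TPM in WT. Tnfsf10 (TRAIL) and Eda had their smallest p, with log2 fold changes of 0.26 and −0.34 and edgeR adjusted p of 0.537 and 0.561.

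Genes of the signals that induce these ligands also stayed short of the threshold in both fits. The 20 genes of CD40 and RANK signalling to NF-kB had a median log2 fold change of 0.02 and lay between −0.08 and 0.25. Nfkbia, the inhibitor that NF-kB itself induces, had 1363 ± 125 TPM in cKO and 1275 ± 73.4 TPM in WT, and Nfkb2, the precursor subunit of the alternative pathway, 323 ± 31.2 TPM in cKO and 334 ± 16.8 TPM in WT. Chuk, the kinase IKK-alpha, had a log2 fold change of 0.25 (edgeR adjusted p = 0.521) and Tnfrsf11a, the RANK gene, 0.15 (adjusted p = 0.586). The 15 regulators of PD-L1 in the interferon pathway or of its protein stability had a median log2 fold change of 0.09. Cmtm6, which protects PD-L1 protein from degradation, was at 174 TPM in cKO and 173 TPM in WT, and Irf1, which induces Cd274, at 179 TPM in cKO and 165 TPM in WT. Spop and Jak2 had the smallest p of that list, with log2 fold changes of 0.15 and 0.17 and edgeR adjusted p of 0.639 and 0.656.

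**Figure D4:**
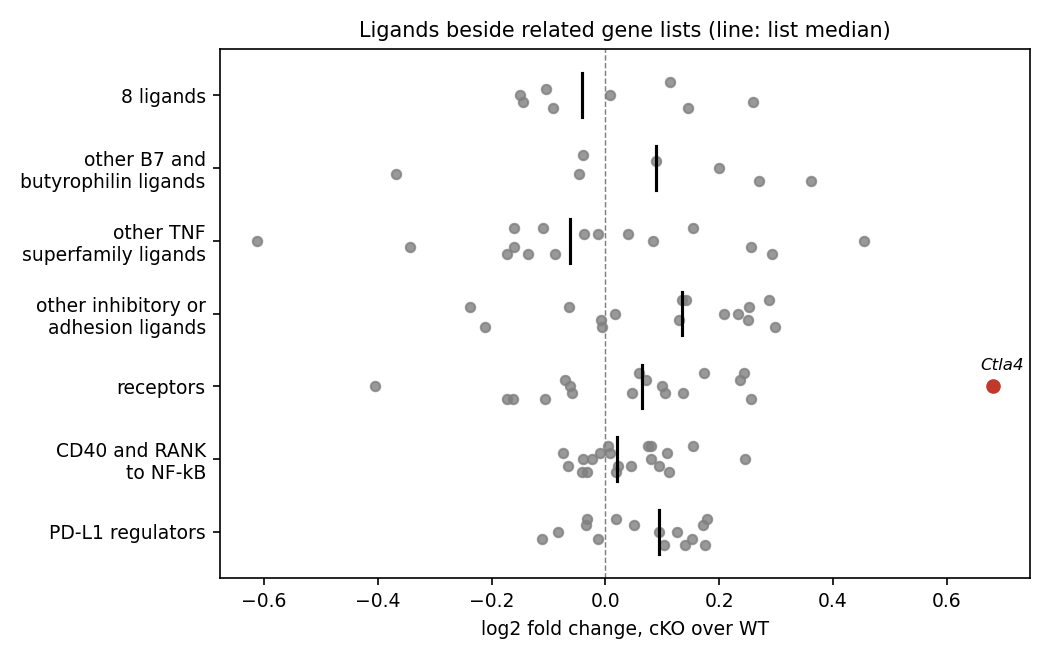
Log2 fold change, cKO over WT, of the 8 ligand genes and of the tested genes of 6 related lists, with 1 point per gene and a black line at the median of each list. The 8 ligands lie between −0.15 and 0.26, and Ctla4 (red, 0.68) is the 1 gene called with the library number as a block.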

How the data were processed

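Per the file headers, the deposited read counts were made with featureCounts 2.0.0 with Ensembl release 99 (GRCm38): exon reads were added up per gene regardless of strand, and a read touching several genes counted for each of them. TopHat2 2.1.1, SAMtools 1.9, Subread 2.0.1 and build mm10 are listed in the submitters' processing notes. The authors' TPM values in the series table were recomputed from its counts and gene lengths to within 0.000834% for values above 1 TPM, and its counts equalled those of the count files for all 51810 genes. The table holds 1 more column of per-sample values, not used here.

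Counts were tested with edgeR 4.0.16 (R 4.3.3; TMM, filterByExpr, robust quasi-likelihood F test), cKO over WT, with Benjamini-Hochberg adjustment over 28543 genes. Standard errors (SE) were derived from F, and 95% intervals from its total degrees of freedom. The scripts were tested on simulated data. CPM values are TMM scaled. Same-numbered cKO and WT libraries deviated together (r of 0.125 to 0.234 over 22024 genes, −0.241 to 0.0862 for other pairs), so the number was used as a block in a further fit. Deviations were taken from group means, so a positive r of same-numbered pairs by itself lowers that of other pairs. The labels state no pairing, and the block was chosen from these same data. No 2 libraries agreed within sampling noise. DESeq2 1.42.0, limma 3.58.1, other scalings, filters and left-out libraries were alternatives.

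The ligands and lists were chosen with earlier results of these data known. Named besides the ligands are, per related list, genes past the threshold in either fit, the 2 with the smallest p and the 2 with the highest mean TPM, per marker list the 2 with the highest mean TPM, and for Cd80 and Cd274 the 3 genes of highest r. Cd28, Icos, Cd3e, Ceacam1, Cd47, Cd40lg, Siglech, Clec9a, Vsig4 and the genes most like Cd86 fall outside this rule and were named after their values were seen.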

Additional observations from a re-analysis of the deposited data

How the results depend on the processing

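None of the 8 ligands was called in any of the 21 alternatives run for each, DESeq2, limma-voom and the replicate block included, and the block changed no call among them. Over all genes, 17 were called, against 180 with DESeq2, 160 with no filter on low counts, 203 with the replicate block, 5 with limma-voom and 6 without robust estimation; leaving out 1 library gave 6 to 16. Leaving out both libraries of a number, an alternative chosen after seeing the data, gave 8, 8 and 5 for numbers 1, 2 and 3. Among the related lists the count of 0 became 1 (Ctla4) with DESeq2, with no filter and with the block; its adjusted p ranged over the alternatives from 0.00445 to 0.949, with a log2 fold change of 0.58 to 0.89.

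Cd274, Pdcd1lg2, Icosl and Cd70 kept the sign of their log2 fold change in all 21 alternatives, but their size moved: with 1 library left out, Cd274 lay between 0.081 and 0.21, Pdcd1lg2 between 0.11 and 0.40, Icosl between −0.16 and −0.054 and Cd70 between −0.28 and −0.011. Likewise, Cd80 lay between −0.23 and 0.031, Cd86 between −0.048 and 0.32, Cd40 between −0.30 and 0.00069 and Tnfsf9 between −0.17 and 0.17. Tnfsf9 was −0.0095 with library totals, −0.0024 with upper-quartile scaling, −0.0069 with limma-voom, −0.0044 with the block, −0.031 without both libraries 2 and −0.041 without both libraries 3. Cd86 was −0.075 without both libraries 3, and Cd40 0.00036 without both libraries 2. The cause of these changes of sign was not tested. With 3 libraries a group, an exact permutation test of 1 gene cannot go below p = 0.1.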
